A study of Mus musculus with 87 samples.

Results

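This account concerns the narrow PCL2 peaks of mouse embryonic stem cells that lie outside SUZ12 and JARID2 peaks. They are the peaks of the deposited PCL2 list that span under 1000 bp and share not a single base with a peak of the SUZ12 list or of the JARID2 list. There were 10711 of them, 53.5% of the 20003 PCL2 peaks and part of the 32790 peaks in the 3 lists together. The other PCL2 peaks were 1117 of 1000 bp or more without SUZ12 or JARID2, called the wide PCL2-only peaks below, and 8175 that overlapped SUZ12 or JARID2, called the shared peaks.

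PCL2, encoded by Mtf2, is a Polycomb-like subunit of Polycomb repressive complex 2 (PRC2), the enzyme that trimethylates lysine 27 of histone H3. SUZ12 is a core subunit that every form of the complex holds. JARID2 and the Polycomb-like proteins are non-core subunits and belong to separate forms of PRC2. The Polycomb-like proteins have a winged-helix domain that binds unmethylated CpG dinucleotides, and in embryonic stem cells PRC2 is known mainly from the CpG islands of silent developmental genes.

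The series holds 87 samples of embryonic stem cells: 63 chromatin immunoprecipitations and 24 RNA libraries. In wild-type cells, the immunoprecipitations with antibodies to the 3 proteins comprised 1 of PCL2, 1 of JARID2 and 2 of SUZ12. These cells had the strain label 129B6F1, were grown on gelatin in 2i medium and were crosslinked with formaldehyde. Further PCL2 ones came from Suz12, Pcl1-3 and Jarid2 knockout cells and from Suz12 knockout cells with Flag-SUZ12 or Flag-SUZ12-C2. Further JARID2 ones came from Suz12, Jarid2 and Pcl1-3 knockout cells. Further SUZ12 ones came from lines with single or combined knockouts of Suz12, Aebp2, Epop, Jarid2, Pcl2 or Pcl1-3. The lists name a protein and no sample, and the labels do not say whether libraries were pooled for them. They hold positions and no score, so presence in a list is a yes or no, and the depth behind each peak is unknown. The lists had 7796 SUZ12 peaks and 4991 JARID2 peaks, so a PCL2 peak outside both could still hold signal below the calls of those lists. The signal of the knockout lines was not analysed here, and RNA counts carry Ensembl IDs that no table used here pairs with genes, so neither the persistence of these peaks without PCL2 nor the RNA of their genes was measured. The cell type label could likewise not be checked against marker RNA.

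Promoter windows that narrow PCL2-only peaks overlapped in whole or in part are shown first, because their CpG content is the feature that returns in the results. Each window runs from 250 bases before to 50 bases after a transcription start, as in the RefSeq table of build GRCm38.p6, and is written 5′ to 3′ on the gene's strand. Capitals mark CpG dinucleotides. The genes belong to the gene lists used further on and were picked, after their peaks were known, to span PRC2 subunits (Jarid2 and Lcor), readers of CpG (Zbtb33 and Kmt2a), naive pluripotency (Klf4) and the germline (Mael and Stra8).
Jarid2 (chr13:44730524-44730823, plus strand, 24 CpG): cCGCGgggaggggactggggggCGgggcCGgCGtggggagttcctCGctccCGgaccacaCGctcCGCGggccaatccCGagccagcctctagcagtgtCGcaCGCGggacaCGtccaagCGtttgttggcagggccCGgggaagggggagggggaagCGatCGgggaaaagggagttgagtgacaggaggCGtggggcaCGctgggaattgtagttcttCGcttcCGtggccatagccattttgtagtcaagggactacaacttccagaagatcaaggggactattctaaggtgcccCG
Lcor (chr19:41482432-41482731, plus strand, 49 CpG): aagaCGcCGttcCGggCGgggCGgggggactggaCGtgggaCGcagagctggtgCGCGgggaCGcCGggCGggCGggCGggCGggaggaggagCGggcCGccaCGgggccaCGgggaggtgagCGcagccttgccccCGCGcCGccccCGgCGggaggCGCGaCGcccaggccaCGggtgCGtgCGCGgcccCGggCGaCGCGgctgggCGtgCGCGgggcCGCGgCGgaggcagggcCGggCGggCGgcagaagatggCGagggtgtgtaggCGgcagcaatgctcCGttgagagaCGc
Zbtb33 (chrX:38189543-38189842, plus strand, 34 CpG): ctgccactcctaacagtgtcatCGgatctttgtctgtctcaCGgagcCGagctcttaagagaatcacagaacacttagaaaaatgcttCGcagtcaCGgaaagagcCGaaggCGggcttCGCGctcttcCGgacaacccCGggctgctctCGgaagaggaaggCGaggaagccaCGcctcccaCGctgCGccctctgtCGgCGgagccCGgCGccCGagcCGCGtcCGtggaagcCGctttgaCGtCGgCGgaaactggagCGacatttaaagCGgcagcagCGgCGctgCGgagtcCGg
Kmt2a (chr9:44881240-44881539, minus strand, 36 CpG): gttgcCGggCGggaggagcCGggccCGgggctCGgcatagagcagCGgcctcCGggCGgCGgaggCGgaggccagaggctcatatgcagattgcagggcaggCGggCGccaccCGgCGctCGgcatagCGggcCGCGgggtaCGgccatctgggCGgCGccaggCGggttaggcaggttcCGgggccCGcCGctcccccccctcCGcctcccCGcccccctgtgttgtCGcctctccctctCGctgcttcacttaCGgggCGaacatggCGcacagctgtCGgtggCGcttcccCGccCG
Klf4 (chr4:55532426-55532725, minus strand, 40 CpG): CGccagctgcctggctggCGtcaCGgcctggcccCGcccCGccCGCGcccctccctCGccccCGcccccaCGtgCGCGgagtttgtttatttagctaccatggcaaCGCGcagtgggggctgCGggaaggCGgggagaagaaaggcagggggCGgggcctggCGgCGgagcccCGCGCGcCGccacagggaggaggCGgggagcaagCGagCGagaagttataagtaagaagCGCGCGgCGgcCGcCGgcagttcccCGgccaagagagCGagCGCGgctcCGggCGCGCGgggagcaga
Mael (chr1:166238695-166238994, minus strand, 24 CpG): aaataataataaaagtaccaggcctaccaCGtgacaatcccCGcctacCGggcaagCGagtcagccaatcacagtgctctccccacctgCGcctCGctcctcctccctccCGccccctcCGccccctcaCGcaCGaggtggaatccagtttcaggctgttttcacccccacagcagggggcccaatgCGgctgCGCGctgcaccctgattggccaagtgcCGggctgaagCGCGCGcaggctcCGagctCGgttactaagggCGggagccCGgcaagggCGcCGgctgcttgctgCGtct
Stra8 (chr6:34920698-34920997, plus strand, 10 CpG): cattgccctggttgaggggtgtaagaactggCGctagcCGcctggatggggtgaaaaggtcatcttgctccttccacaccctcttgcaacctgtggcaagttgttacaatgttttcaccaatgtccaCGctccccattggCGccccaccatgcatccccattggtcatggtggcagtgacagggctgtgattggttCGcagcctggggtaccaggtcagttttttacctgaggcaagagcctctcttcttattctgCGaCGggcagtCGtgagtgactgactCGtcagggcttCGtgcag
Of these 7 windows, that of Lcor was the densest in CpG and that of Stra8 the sparsest.

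Width and overlap chose the peaks, so their values describe the selection and carry no test. The narrow PCL2-only peaks had a median width of 475 bp (quartiles 360 and 648 bp), against 1179 bp for wide PCL2-only peaks and 1465 bp for shared peaks. They covered 5.58 Mb in all, against 1.43 Mb and 14.9 Mb. The most populated 100 bp class was 300 to 399 bp, with 3059 peaks (28.6%), and numbers declined from there to 507 peaks at 900 to 999 bp. A width of exactly 348 bp occurred 380 times (3.55%), while the next commonest width occurred 55 times. The same width occurred 61 times in the JARID2 list and 18 times in the SUZ12 list. Of the narrow PCL2-only peaks, 1873 were narrower than 348 bp. Just inside the limit, peaks of 999 bp lay in Baz1a (chr12:54998823-54999821) and Map3k7cl (chr16:87552968-87553966) and 1 of 998 bp in Sgk3 (chr1:9806717-9807714). Just outside it, peaks of 1000 bp lay in BC016579 (chr16:45653352-45654351) and Bicra (chr7:15971777-15972776) and near Skida1 (chr2:18025877-18026876). The narrowest spanned 150 bp in Sec1 (chr7:45685719-45685868), 150 bp beyond Zfp703 (chr8:26847421-26847570) and 151 bp in Ap3m2 (chr8:22789476-22789626).

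**Figure D1:**
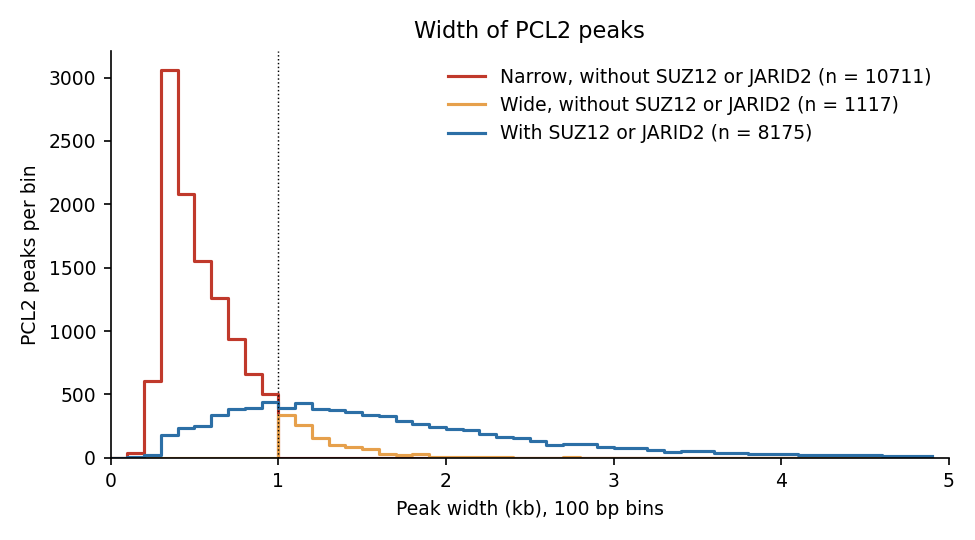
Number of PCL2 peaks (vertical axis) by width in kb (horizontal axis, 100 bp bins, cut at 5 kb) for narrow peaks without SUZ12 or JARID2, wide peaks without them, and peaks with either. The dotted line is the 1000 bp limit; the narrow PCL2-only peaks pile up between 300 and 399 bp, with 3059 peaks.

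The limit on overlap left some peaks very close to SUZ12 or JARID2. Gaps of 1, 2 and 3 bp separated peaks at Stpg4 (chr17:87420205-87420557), near Evl (chr12:108554327-108554651) and at Vezf1 (chr11:88069872-88070316) from the nearest such peak. On the other side of that limit, 2270 PCL2 peaks under 1000 bp overlapped SUZ12 or JARID2, by as little as 2 bp and by under 100 bp in 82 cases. Over all narrow PCL2-only peaks the median gap was 38.9 kb (quartiles 8.46 and 118 kb), against 34.8 kb for wide PCL2-only peaks. Within 1 kb of a SUZ12 or JARID2 peak lay 857 narrow PCL2-only peaks (8.0%), and within 10 kb 2892 (27%). Gaps of random positions were not measured, so these values do not say whether the peaks lie nearer or farther than such positions. Neighbouring narrow PCL2-only peaks had a median spacing of 58.5 kb, and 629 of 10688 spacings were under 1 kb.

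Relative to genes, the narrow PCL2-only peaks were spread over starts, gene bodies and the space between genes. Within 1 kb of a protein-coding start lay 3050 of 10711 (28.5%, 95% Wilson interval 27.6 to 29.3), against 450 of 1117 wide PCL2-only peaks (40.3%, 37.4 to 43.2) and 4661 of 8175 shared peaks (57.0%, 55.9 to 58.1). A further 445 (4.15%) lay within 1 kb of the start of a long non-coding RNA, 3708 (34.6%) inside a protein-coding gene away from any such start, and 3508 (32.8%) elsewhere. For shared peaks the last 2 shares were 21.8% and 16.6%. Distance was counted from the edge of a peak, so a wider peak comes within 1 kb of a start more readily. The rule limits width, so the shares at starts depend in part on it. Intervals cover counting error only; the lists have no replicates, peaks are not independent, and no test between classes was run. Because 4395 of the 21887 protein-coding genes have no strand in the tables used here, a peak within 1 kb of either of their ends was counted as at the start; for the other 17492 the start itself was used.

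**Figure D2:**
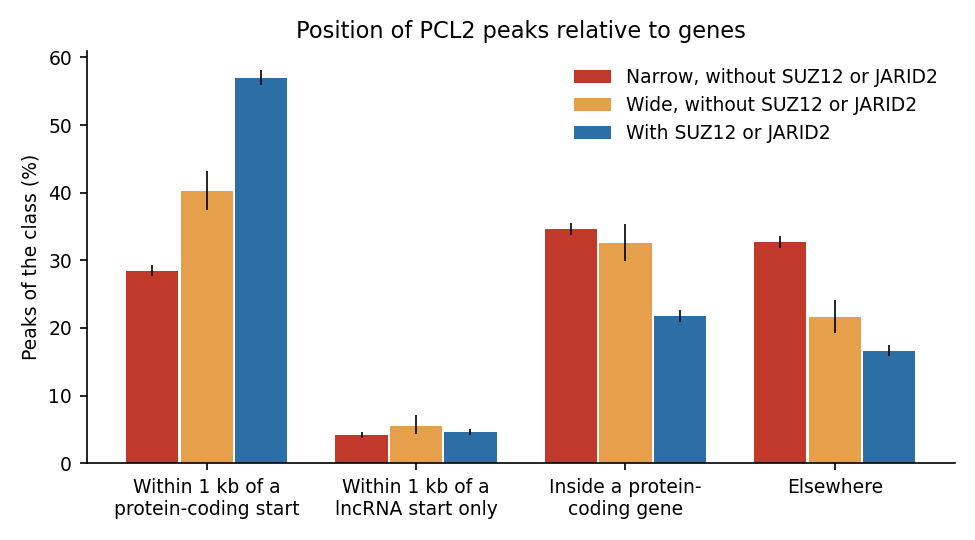
Share of peaks in percent (vertical axis) by position relative to genes (horizontal axis), in narrow peaks without SUZ12 or JARID2, wide peaks without them, and peaks with either. Bars are shares and lines 95% Wilson intervals; 28.5% of the narrow PCL2-only peaks were at a protein-coding start, against 57.0% of the shared peaks.

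Position varied with width and with distance from the other subunits. Of narrow PCL2-only peaks of 300 to 399 bp, 21.7% were at a protein-coding start, and of those of 800 to 899 bp 38.0%. Because distance was counted from the peak edge, width itself bears on these shares. By gap to SUZ12 or JARID2 the share was 21.9% under 1 kb, 13.6% at 1 to 10 kb, 30.1% at 10 to 100 kb and 37.7% from 100 kb on. Peaks at starts had a median gap of 66.9 kb to the nearest SUZ12 or JARID2 peak, and those inside genes away from starts 24.3 kb. In every gap class most peaks were away from starts, and the share did not move in 1 direction with the gap. The gap measures the same positions as the overlap that chose the peaks, so it is a description.

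Genes that held narrow PCL2-only peaks away from a start often held SUZ12 or JARID2 as well. Of 2437 such genes, 1452 (59.6%) had a SUZ12 or JARID2 peak inside, against 5263 of all 21887 protein-coding genes (24%). These genes were long, with a median of 44.0 kb against 17.2 kb over all genes, so the shares were also taken within length classes. They were 50.1% with and 14.5% without an internal narrow PCL2-only peak for genes under 20 kb, 60.6% and 26.5% at 50 to 100 kb, and 74.7% and 58.6% from 200 kb on. Among 2870 genes overlapped by a narrow PCL2-only peak at a start, by contrast, 383 (13.3%) held SUZ12 or JARID2, a share that the rule against overlap bears on. Of the peaks inside 1 gene of known strand and away from starts, 32.1% of 2835 lay in the last of 4 equal parts of the gene, against 35.7% of 1333 shared peaks.

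Some genes were strewn with narrow PCL2-only peaks. Skap1, an adaptor of T-cell signalling whose gene adjoins the Hoxb cluster, had 25 within the gene or 1 kb of it (chr11:96464570-96759622) and 1 SUZ12 peak. Cdh22, a cadherin, had 17 (chr2:165111501-165234924), and Tshz2, a zinc finger regulator, 16 (chr2:169632509-170072751), with 5 and 4 SUZ12 peaks inside. The highest counts, 26 in each of the overlapping gene models Gm37013 and Gm38666, came from the clustered protocadherins on chromosome 18, which encode adhesion proteins that mark single neurons. That cluster (chr18:36930285-37841873) held 26 narrow PCL2-only peaks beside 48 shared PCL2 peaks, 44 SUZ12 peaks and 20 JARID2 peaks. Its members differed in peaks within 1 kb of either gene end, which stood in for the start because no chromosome 18 start was available. There, a narrow PCL2-only peak with no SUZ12, JARID2 or wide PCL2-only peak was present at 8 of 22 Pcdhb genes, such as Pcdhb2 and Pcdhb10. Such a peak was present at 2 of 14 Pcdha genes and at 1 of 21 Pcdhg genes. SUZ12 or JARID2 was there at 6 Pcdhb, 9 Pcdha and 16 Pcdhg genes. A narrow PCL2-only peak with no other peak was impossible by definition at those genes. The difference between the protocadherin groups therefore follows in part from the rule, and it was not tested. Cdh22, Tshz2 and the protocadherin groups were chosen after their values were seen.

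At promoters the narrow PCL2-only peaks sat just downstream of the start. Among 2304 whose centre fell within 1 kb of a start of known strand, the centre was a median of 117 bp downstream (quartiles -12.75 and 261 bp, negative upstream), against 224.5 bp for 342 wide PCL2-only peaks and 223.5 bp for 3145 shared peaks. Downstream centres made up 72.5%, 73.7% and 78.2% of the 3 classes. The first 250 bp after the start held 45.7% of the narrow PCL2-only centres, against 28.1% and 31.6%. Centres depend on width, which the rule limits, so a wide peak that begins at the start has its centre farther downstream.

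**Figure D3:**
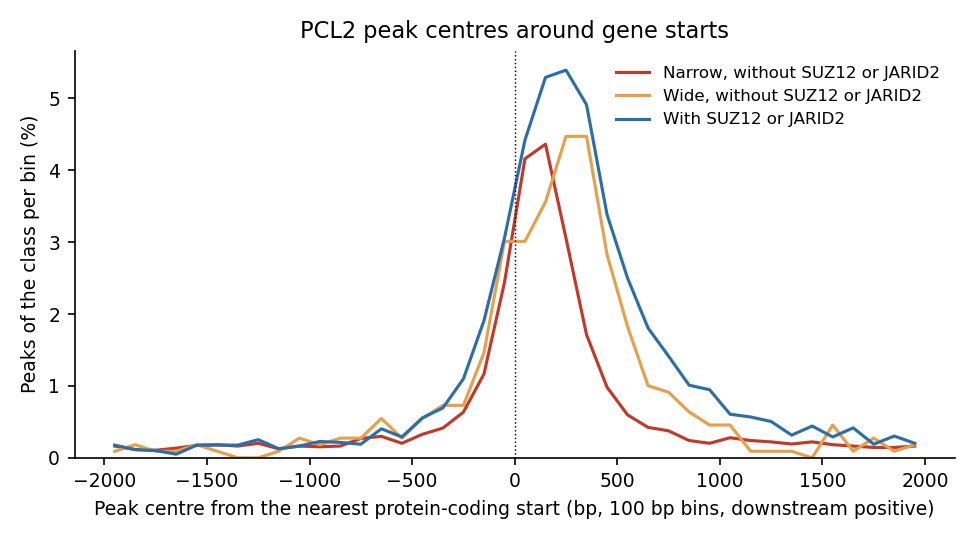
Percent of each PCL2 class per 100 bp bin (vertical axis) against the distance of the peak centre from the nearest protein-coding start in bp, downstream positive (horizontal axis), on chromosomes in the promoter table. The narrow peaks without SUZ12 or JARID2 crest between the start and 200 bp, with a median of 117 bp among those within 1 kb, and the wide and shared peaks lie farther downstream.

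Promoters under narrow PCL2-only peaks were as rich in CpG as those under shared peaks. Of 21263 protein-coding promoter windows of 300 bases, 2051 (9.65%) were overlapped by a narrow PCL2-only peak and by no other PCL2 peak, 386 by a wide PCL2-only peak and 3704 by a shared peak; 15122 had no PCL2 peak. The median number of CpG per window was 23 (quartiles 16 and 32) under narrow PCL2-only peaks, 24 under wide ones, 23 under shared ones and 7 (2 and 20) in windows without PCL2. The median GC content was 64.0%, 65.7%, 65.7% and 52.7% in the same order. The Stra8 window printed above, with 10 CpG, belongs to the sparse end of the narrow PCL2-only set, and 31 of the 2051 windows had under 5 CpG, against 5918 of the 15122 without PCL2. Windows of the same gene or of facing genes overlap, so they are not independent.

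The share of protein-coding windows with a narrow PCL2-only peak grew with every step in CpG content. It was 0.514% of 6035 windows with 0 to 4 CpG, 5.50% at 5 to 9, 11.2% at 10 to 14, 15% at 20 to 24 and 20% of 1940 windows with 35 to 67. Shared peaks occupied 1.26%, 10.2%, 22.9%, 24.1% and 38.8% of the same classes. High CpG content did not by itself come with PCL2: 36.0% of the densest windows had no PCL2 peak of any class. Among windows of long non-coding RNAs, the share with a narrow PCL2-only peak did not grow with every step. It was 0.294% at 0 to 4 CpG, 12.6% at 20 to 24, 11.9% at 25 to 29, 19.5% at 30 to 34 and 18.6% at 35 to 63. Of their 11588 windows 369 (3.18%) had such a peak, with a median of 17 CpG, against 3 in windows without PCL2.

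**Figure D4:**
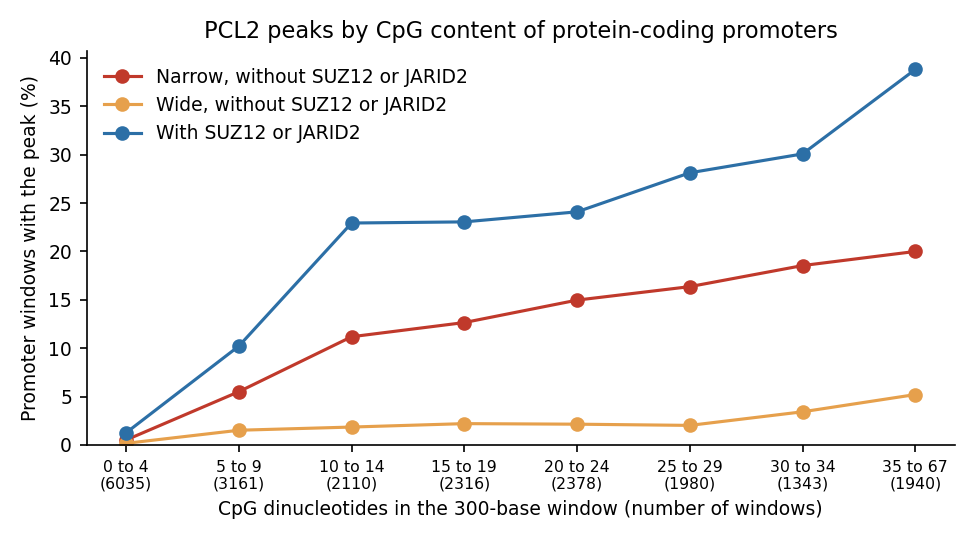
Percent of protein-coding promoter windows with a PCL2 peak (vertical axis) by the number of CpG in the 300-base window (horizontal axis, number of windows in brackets), for narrow peaks without SUZ12 or JARID2, wide peaks without them, and peaks with either. The narrow PCL2-only line climbs from 0.514% at 0 to 4 CpG to 20% at 35 to 67.

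Some short motifs differed in frequency between these promoters and those under shared peaks, although CpG content was alike. In all, 21 motifs were searched on both strands, and a match is only a run of letters. CGCG stood in 79.0% of narrow PCL2-only windows and 79.0% of shared windows, against 49.2% of all windows, and the box GGGCGG of SP1 and KLF factors in 73.2% and 71.6%, against 46.2% of all. The ETS core CCGGAA, which holds a CpG and is common in promoters of housekeeping genes, stood in 27.6% (95% Wilson interval 25.7 to 29.6) of narrow PCL2-only windows and in 13.0% (11.9 to 14.1) of shared windows, against 18.7% of all windows. Wide PCL2-only windows, of which there were 386, held it at 21.2% (17.5 to 25.6). The Lcor, Zbtb33 and Kmt2a windows above hold CCGGAA on one of their strands. The NRF1 motif GCGCATGCG stood in 4.10% (3.32 to 5.04) and 1.67% (1.31 to 2.14), against 2.35% of all, and the YY1 motif AAGATGGCG in 2.15% (1.60 to 2.87) and 0.540% (0.350 to 0.833), against 1.83% of all. Wide PCL2-only windows had the NRF1 motif in 2.33% (1.23 to 4.37) and the YY1 motif in 2.33% (1.23 to 4.37), intervals that overlap those of the narrow ones. The TATA box TATAAA was less frequent in narrow PCL2-only windows, at 4.05% (3.28 to 4.99), than in shared ones, at 7.02% (6.24 to 7.89). Over all windows it stood in 12.6%, a figure that includes the many CpG-poor windows without PCL2.

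Set beside windows of like CpG content, the motifs did not all order the classes alike. Of the 21 motifs, in windows with 20 to 29 CpG, 13 had a share in narrow PCL2-only windows between those of the shared windows and of the windows without PCL2, 2 were above both, 5 below both and 1 tied, and many of these differences were small. Among these windows, CCGGAA stood in 34.9% of 680 narrow PCL2-only windows and 14.8% of 1130 shared windows, against 42.8% of 2457 windows without PCL2; it stood in 24.2% of 91 wide PCL2-only windows. In the same windows the NRF1 motif stood in 4.71%, 1.86% and 5.70%, the YY1 motif in 2.21%, 0.973% and 5.45%, and the NF-Y box CCAAT in 36.6%, 32.3% and 43.0%. GGGCGG stood in 79.3%, 81.1% and 73.2%. TATAAA was below both other classes in narrow PCL2-only windows, at 2.65%, 6.46% and 4.15%, and the E-box CACGTG above both, at 12.9%, 10.9% and 11.8%. CCGGAA was more frequent in narrow PCL2-only than in shared windows in each of the 8 CpG classes, with shares from 9.68% to 37.0% against 1.32% to 16.0%. Against wide PCL2-only windows the order varied: at 15 to 19 CpG the share was 20.8% in narrow and 29.4% in 51 wide windows, at 30 to 34 CpG 32.9% and 41.3% (46 wide windows), and in the other 6 classes it was higher in the narrow ones. A start of another gene on the opposite strand lay within 1 kb of 21.1% of the narrow PCL2-only windows, 24.6% of the wide, 14.4% of the shared and 14.9% of those without PCL2.

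**Figure D5:**
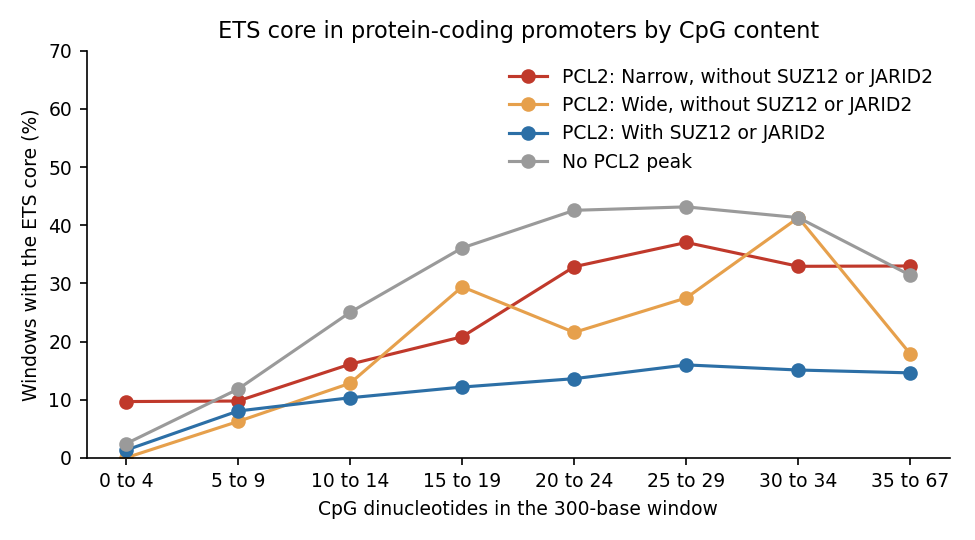
Percent of protein-coding promoter windows that hold CCGGAA on either strand (vertical axis) by CpG number (horizontal axis), for windows with a narrow PCL2 peak without SUZ12 or JARID2, with a wide one without them, with a shared peak, and without a PCL2 peak. From 5 to 34 CpG the narrow PCL2-only line runs between the shared line and that without PCL2, while the wide line, which rests on few windows a class, crosses it.

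At the level of genes, 3081 of 21887 protein-coding genes (14.1%) had a narrow PCL2-only peak within 1 kb of a start. For 2742 of them (12.5% of all genes) no SUZ12, JARID2 or wide PCL2-only peak lay within 1 kb, and for 339 at least 1 of these did. SUZ12 or JARID2 lay there at 4602 genes (21.0%). Of 2761 genes with several promoter windows, 474 had a narrow PCL2-only peak at a window, and 57 of these had a shared peak at another window while 294 had a window without PCL2. The gene lists below were read against the 12.5% of all genes that have a narrow PCL2-only peak and none of the other peaks at a start; of 346 matched genes in 19 lists, 30 did. None of these counts was tested against the background.

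Among genes of PRC2 itself, narrow PCL2-only peaks were seen at some non-core subunits. The non-core subunits Jarid2, Aebp2, Epop and Lcor, whose locus also encodes the PRC2 subunit PALI1, made 4 of 8, while none of the 6 core subunits had PCL2 there. The peak at Jarid2 was 348 bp wide (chr13:44730336-44730683), with its centre at -264.5 bp from the nearest start (upstream), and 24.8 kb from the closest SUZ12 or JARID2 peak. The peak at Aebp2 was 875 bp wide (chr6:140623377-140624251) and 109 kb from such a peak. Its centre was at -1095 bp from the start, so only part of it came within 1 kb. The peak at Epop was 736 bp wide (chr11:97629541-97630276) and 82.0 kb from SUZ12 or JARID2. Epop has no known strand here, so a peak within 1 kb of either gene end counted. Lcor had 2 narrow PCL2-only peaks near its start, the closer at chr19:41482729-41483156. Ezhip, an inhibitor of PRC2, had a narrow PCL2-only peak 0.09 kb from SUZ12 or JARID2 and is therefore not among the 4. Lists of 8 and 6 genes give imprecise shares. Over all genes 12.5% had such a peak and no other, so none among 6 is not a result about core subunits.

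Among genes of PRC1 and of CpG-reading chromatin enzymes, the counts were near the 12.5% of all genes and are given as examples, not as a result about the lists. In PRC1, the Polycomb complex that ubiquitinates histone H2A, Ring1 and Rybp had narrow PCL2-only peaks (2 of 22), and Kdm2b, which recruits PRC1 to CpG islands, had one beside other peaks. Of 17 genes of CpG binding and histone H3 lysine 4 methylation, the methyltransferase gene Kmt2a (875 bp, chr9:44880952-44881826, centre at -100 bp) and the demethylase gene Kdm2a (730 bp, chr19:4398009-4398738) did. Of 14 genes of DNA methylation, Zbtb33, encoding the methyl-CpG reader Kaiso, had one of 348 bp (chrX:38189515-38189862). SUZ12 or JARID2 lay within 1 kb of a start at 10 of the 22 PRC1 genes, 2 of the 17 and 3 of the 14. At those genes a narrow PCL2-only peak with no other peak was impossible by definition.

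Genes of the pluripotent and germ line states made up further examples, given beside the 12.5% of all genes, to which the germline share was near. Of 20 naive pluripotency genes, 4 had a narrow PCL2-only peak and no other: Klf4 (425 bp, centre at -91 bp, chr4:55532354-55532778), Klf5 (619 bp, 987 kb from SUZ12 or JARID2), Tbx3 (534 bp) and Dppa3 (280 bp, 1.98 kb from SUZ12 or JARID2). Of 23 germline genes, Mael, of the piRNA pathway, Sycp2, of the synaptonemal complex, and Stra8, the retinoic acid target that starts meiosis, had them (3 of 23). SUZ12 or JARID2 was at 12 germline genes and 1 naive pluripotency gene, where a narrow PCL2-only peak with no other peak was impossible by definition. Klf5, Tbx3 and Dppa3 have no known strand here, so a peak within 1 kb of either gene end counted. The peak at Mael was 726 bp wide and centred 85.5 bp downstream, and that at Stra8 330 bp wide and centred 17.5 bp downstream of the start.

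The developmental regulators that PRC2 is known for mostly had SUZ12 or JARID2 within 1 kb of a start. Over all genes, 14.1% had a narrow PCL2-only peak there, and 12.5% had one with none of the other peaks. None of 28 neural regulators had one, and all 28 had SUZ12 or JARID2. Of 28 primitive streak and mesoderm genes, Msgn1 had one with no other peak (897 bp), Gata4 and Tbx5 had one beside other peaks, and 24 had SUZ12 or JARID2. Overlap with SUZ12 and JARID2 is barred by the rule, so these counts follow in part from it. At the genes with SUZ12 or JARID2, a narrow PCL2-only peak with no other peak was impossible by definition. The counts are therefore no result about these genes.

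In lists of general cell functions and of other cell types the shares were at or below the 12.5% of all genes. These lists are short, no difference was tested, and the genes are examples. The counts were 0 of 24 ribosomal protein genes, of which 23 had no PCL2 peak of any class, 2 of 22 respiratory chain genes (Ndufa1 and Cox4i1), 2 of 22 cell cycle and replication genes (Ccne2, a cyclin, and E2f3), and 2 of 20 splicing and RNA-binding genes (Hnrnpk and Hnrnpu). Of 19 cell cycle inhibitors and p53 targets, Cdkn2b had one with no other peak, and Cdkn2a and Pmaip1 had one beside other peaks. Of 15 genes of heat shock and protein folding stress, Dnajb1 had one, and of 12 genes of MAPK feedback Spred1, an inhibitor of Ras signalling, had one of 966 bp. Among markers of other cell types they were Vim and Tagln of 18 fibroblast genes and Cdh5 and Hba-a1 of 16 blood and endothelial genes. None of 15 matched genes of 2-cell-like cells had one. SUZ12 or JARID2 lay at 7 genes each of the MAPK feedback, inhibitor and p53, fibroblast, and blood and endothelial lists. In each other list of this paragraph it lay at 0 to 3 genes, and over all genes at 21.0%. At such genes a narrow PCL2-only peak with no other peak was impossible by definition, so these shares follow in part from the rule.

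The chromosomes carried unequal numbers. Per 100 protein-coding genes, the 19 autosomes had a median of 51.6 narrow PCL2-only peaks, from 31.4 on chromosome 7 to 85.9 on chromosome 8, where the next highest, chromosome 15, had 65.2. The X chromosome had 10.7 (103 peaks for 966 genes) and the Y chromosome 4.69 (12 for 256). Shared peaks were distributed alike in this respect, with 67.5 on chromosome 8 and 12.6 on the X chromosome against a median of 37.0 over the autosomes. The number of copies of each chromosome in these cells and the depth of each library on it were not measured, and their part in these values was not tested.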

How the data were processed

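Embryonic stem cells were profiled by chromatin immunoprecipitation and RNA sequencing. The authors deposited 3 peak lists, whose values are positions in base pairs; the submitters' processing notes name Trimmomatic, Bowtie2 and mm10. Peak caller, threshold and pooling: not given in the sources used here. Deposited read counts per Ensembl ID were not used, since no table pairs them with genes, and the planned comparisons of 4 knockout genotypes with WT were not run.

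Overlap meant 1 shared base. Starts, strands and 300-base promoter windows came from RefSeq tables of GRCm38.p6, whose chromosome coordinates are those of mm10; no chromosome 18 window was used. A window with several kinds of PCL2 peak counted as shared, then wide, then narrow. Shares have 95% Wilson intervals; no test was run, because each protein has 1 list. Python 3.11.15, pandas 2.3.3 and scipy 1.17.1 were used, and the interval and motif functions were tested on simulated data. The rule for names took list genes with a narrow PCL2-only peak within 1 kb of a start, the 3 narrowest peaks, 3 peaks on each side of the width limit, the 3 smallest gaps and the 3 genes with most peaks; its parts on RNA changes could not be applied. Peaks, lists and rules were chosen with earlier results of these data known, and motifs other than GCG, CGCG and the GA and CA repeats were added after the data were seen.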

Additional observations from a re-analysis of the deposited data

How the results depend on the processing

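The number of narrow PCL2-only peaks was 5785 with a width limit of 500 bp and 9852 when no SUZ12 or JARID2 peak was allowed within 1 kb. The share at a protein-coding start was 42.9% within 5 kb, 65.1% anywhere in or within 1 kb of a gene, 24.4% for peaks under 500 bp and 29% without peaks within 1 kb of SUZ12 or JARID2. The settings that follow were chosen after seeing the data. That share was 22.5% with the starts of the promoter table only and 28.3% with either end of every gene. Genes with such a peak and none of the others at a start numbered 1287 with peaks under 500 bp and 2728 to 3193 under the other 3 settings. The median was 23 CpG per window for peaks under 500 bp and without peaks within 1 kb of SUZ12 or JARID2. The share of windows with CCGGAA was 30.03% for peaks under 500 bp, 34.9% in windows with 20 to 29 CpG and 27.9% without peaks within 1 kb of SUZ12 or JARID2. The planned RNA comparisons and their alternatives were not run. No paired analysis was possible because the peak lists have no replicates and the RNA counts could not be joined to them. With no scores, depth cannot be read from the lists, and absence from one does not show absence of the protein.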

Other observations

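Genes were grouped by the letters that open their symbols, so a group is not a gene family: Map holds both Map1a and Map2k4. The 14 groups were chosen after values were seen, and no enrichment was tested. Of all protein-coding genes, 12.5% had a narrow PCL2-only peak within 1 kb of a start without SUZ12, JARID2 or a wide PCL2-only peak. At genes with SUZ12 or JARID2 there, this was impossible by definition, so the shares follow in part from the rule. The shares were 43.3% of 30 Snx genes (sorting nexins, such as Snx3, Snx6 and Snx27), 34.5% of 29 Sec, 31.9% of 47 Map, 29.4% of 34 Arhgap, 27.5% of 69 Rab, 25% of 28 Polr, 23.7% of 38 Rbm and 22.0% of 41 Zbtb genes. They were 13.9% of 375 Slc, 11.3% of 397 Zfp, 9.33% of 75 Gpr and 4.04% of 99 Cyp genes. Receptors of smell were at 2 of 1110 Olfr genes (Olfr66 and Olfr1344) and 0 of 355 Vmn genes. The Polr genes were Polr1d, Polr2l, Polr3c, Polr3d, Polr3e, Polr3f and Polr3gl.

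Overlap of any part of a gene by a narrow PCL2-only peak was counted by gene type, with no allowance for gene length. It was 22.7% of protein-coding genes, 9.13% of long non-coding RNA genes, 2.61% of 9944 pseudogenes, 1.23% of 408 transfer RNA genes and 1.59% of 63 ribosomal RNA genes. Shared peaks overlapped 23.6%, 9.55%, 1.95%, 2.94% and 77.8% of the same types. Of 1005 microRNA hairpins in the RefSeq table, 15 (1.49%) were overlapped by a narrow PCL2-only peak and 51 by a shared peak. Among the 15 were the neighbours Mir181a-1 and Mir181b-1 on chromosome 1, whose 5p products share the seed (bases 2 to 8, in capitals); they are shown because the peaks overlapped both hairpins.
mmu-miR-181a-5p (chr1:137966468-137966490, plus strand): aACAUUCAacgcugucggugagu
mmu-miR-181b-5p (chr1:137966650-137966673, plus strand): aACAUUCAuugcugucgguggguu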
